A study of Mus musculus with 18 samples.

Results

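The genes described here are 10 genes of the NRF2 pathway and of glutathione synthesis, taken by name from the deposited table of 16873 genes and followed across all 6 groups of the series. They are Nfe2l2 and Keap1 (the transcription factor NRF2 and its repressor), Gclc, Gclm and Slc7a11 (glutathione synthesis and cystine import), Gsr, Txnrd1 and Srxn1 (reduction of glutathione, thioredoxin and peroxiredoxins), and Nqo1 and Hmox1 (detoxification of quinones and haem). In unstressed cells KEAP1 holds NRF2 and has it degraded. Electrophiles and oxidants modify cysteines of KEAP1, NRF2 then accumulates, pairs with small MAF proteins and binds antioxidant response elements, short DNA motifs near its target genes. In the liver this pathway is known for keeping up glutathione, the thiol with which hepatocytes neutralise oxidants and reactive drug metabolites.

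The series measured RNA of mouse liver hepatocytes of the genotypes Mtdh KO and WT, taken from age-matched mice labelled as normal and without tumor. The hepatocytes were treated with CM, which is conditioned medium of Kupffer cells (liver macrophages) that had been given Py8119-EVPs, or with the cytokines TNFa or TGFb, so that the 6 groups were CM KO, CM WT, TNFa KO, TNFa WT, TGFb KO and TGFb WT with 3 libraries each. Py8119 is a mouse mammary tumour cell line. No group was untreated, so a difference between 2 treatments cannot be assigned to either of them. The sources used here do not give doses, treatment times, sex, or how and in which cells Mtdh was removed. The series' design calls the libraries biological replicates and no label ties one to a mouse, so p-values measure the spread between libraries.

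Values are the authors' DESeq2-normalized values per gene and library. Estimated depth ran from 19400000 to 35600000 reads over the 18 libraries (median 23400000). Mtdh ranged from 581 to 973 in the 9 KO libraries and from 10063 to 13725 in the 9 WT libraries, so each library matched its genotype label. None of the 11 hepatocyte markers analysed was at 0 in any library, with the lowest summed level in the TNFa groups (a mean of 7.84% of all values in TNFa KO and 7.94% in TNFa WT) and the highest in TGFb KO (12.6%). Among the 11, Alb alone held 5.83% to 10.3% of all values per library, so this sum mainly followed Alb. Of these 11, in KO 4 higher and 0 lower passed with CM, 3 higher and 2 lower with TNFa and 4 higher and 0 lower with TGFb. Over all genes tested, 9.39%, 7.89% and 12.2% passed with CM, TNFa and TGFb. Markers of other cell types were detected too. Highest in their lists were the cholangiocyte marker Sox9 (median of 6898 over the 18 libraries), the endothelial marker Cdh5 (1765) and the macrophage markers Cd14 (1694) and Cd68 (1639.7). The other medians ran from 0 (Muc1) to 251 (Spp1) for cholangiocyte and from 17 (Clec4g) to 1020 (Stab1) for endothelial markers. For macrophage markers they ran from 8.9 (Timd4) to 761 (Lyz2). Cd14 and Cd68 did not differ between the genotypes under any of the treatments, and both count in the summed level below. Macrophage markers passed as higher in KO under each treatment, with 8 of 19 higher with CM, 12 of 19 with TNFa and 12 of 19 with TGFb, and none lower. Their summed level was 7147 to 7567 in KO and 4374 to 5088 in WT with CM, 8805 to 10207 in KO and 5408 to 6392 in WT with TNFa, and 7227 to 8655 in KO and 4511 to 5261 in WT with TGFb, at most 0.0443% of all values in a group mean. Timd4 was at 0 in 4 libraries, Cd163 in 2 and Tyrobp in 1. Endothelial markers were higher in KO for 1 of 14 genes with CM, 6 with TNFa and 3 with TGFb. Of stellate cell markers 6 of 12 were tested, with Dcn higher in KO with CM and with TGFb. Of 8 cholangiocyte markers Spp1 and Sox9 were lower in KO with TNFa, and of 12 lymphocyte and neutrophil markers 4 were tested and none differed between the genotypes. The part of these cells in the results on the 10 genes was not tested.

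Promoter windows, from 250 bases before to 50 bases after an annotated start, were found in RefSeq's table (GRCm38.p6) for 7 of the 10 genes: Nfe2l2, Keap1, Nqo1, Gclm, Txnrd1, Srxn1 and Slc7a11. They were searched on both strands for TGACNNNGC, the core of the antioxidant response element, which 12.4% of the 32851 windows in the table hold. Counted by gene, 14.0% of 27025 genes have a window with it. The core was in the windows of Nfe2l2 (first base 240 bases before the start, same strand), Gclm (134 bases before, opposite strand), Srxn1 (28 bases after, opposite strand) and the middle one of 3 Txnrd1 windows (92 bases before, opposite strand), and not in those of Keap1, Nqo1 and Slc7a11. All windows were also searched for TGATGNAA, the core of the amino acid response element bound by ATF4, a motif chosen after the results were known and held by 3.97% of windows and 4.51% of genes. Of the 7 genes it was found only in Slc7a11, on both strands, 66 and 47 bases before the start, with no overlap between the copies. The windows of the 3 genes with an antioxidant response element core that were higher in KO libraries, and that of Slc7a11, are shown 5′ to 3′ on the gene's strand, with the motif in capitals. A core on the opposite strand is printed as its reverse complement. A match is a description of the letters and no measure of binding.
Gclm, chr3:122245307-122245606, plus strand: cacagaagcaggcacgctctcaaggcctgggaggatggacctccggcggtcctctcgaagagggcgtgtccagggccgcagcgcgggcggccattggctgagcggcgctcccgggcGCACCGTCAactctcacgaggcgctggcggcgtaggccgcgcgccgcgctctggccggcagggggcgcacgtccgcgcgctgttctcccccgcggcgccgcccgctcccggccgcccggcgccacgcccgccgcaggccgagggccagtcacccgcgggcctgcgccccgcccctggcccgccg
Txnrd1, chr10:82858956-82859255, plus strand: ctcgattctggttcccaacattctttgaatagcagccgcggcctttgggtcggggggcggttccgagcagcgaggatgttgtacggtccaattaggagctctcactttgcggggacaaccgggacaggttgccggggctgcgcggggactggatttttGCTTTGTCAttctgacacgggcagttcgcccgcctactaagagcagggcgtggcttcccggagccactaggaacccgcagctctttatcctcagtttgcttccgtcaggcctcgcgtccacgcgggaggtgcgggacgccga
Srxn1, chr2:152105274-152105573, plus strand: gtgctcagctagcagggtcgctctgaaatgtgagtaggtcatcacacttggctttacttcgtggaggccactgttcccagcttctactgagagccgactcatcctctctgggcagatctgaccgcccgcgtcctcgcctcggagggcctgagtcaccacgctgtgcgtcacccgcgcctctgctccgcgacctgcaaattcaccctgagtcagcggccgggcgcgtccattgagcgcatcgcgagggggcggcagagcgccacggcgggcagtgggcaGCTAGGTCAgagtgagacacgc
Slc7a11, chr3:50443564-50443863, minus strand: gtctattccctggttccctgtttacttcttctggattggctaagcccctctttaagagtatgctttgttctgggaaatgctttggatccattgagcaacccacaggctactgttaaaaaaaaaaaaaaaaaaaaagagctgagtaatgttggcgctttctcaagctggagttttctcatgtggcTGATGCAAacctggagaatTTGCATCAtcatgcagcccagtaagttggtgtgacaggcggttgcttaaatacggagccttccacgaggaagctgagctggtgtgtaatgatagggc

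All 10 genes passed the filter on low values, and per length of exon they spanned a wide range of levels. The mean of the 18 libraries per kilobase of merged exon (GENCODE M21) was highest for Hmox1 (23429 per kb), followed by Srxn1 (7235), Gclc (6647), Gsr (3684), Txnrd1 (1799), Gclm (1046), Nfe2l2 (881), Slc7a11 (720), Nqo1 (176) and Keap1 (107). Within a gene the spread over groups differed too. On the log2 scale the highest and lowest group means were 1.94 apart for Slc7a11, 1.53 for Txnrd1, 1.46 for Gclc, 1.08 for Srxn1 and 0.95 for Hmox1, but only 0.35 for Nfe2l2, 0.35 for Gsr and 0.30 for Keap1.

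The first question of the design is how KO and WT hepatocytes differ under each treatment. With CM 5 of the 10 genes were higher in KO and 0 lower, where 9.39% of the 14455 genes tested were called, 5.62% higher and 3.77% lower (adjusted p below 0.05, limma). With TNFa 6 were higher and 1 lower, against 4.19% and 3.7% of all genes (7.89% in all). With TGFb 1 was higher and 0 lower, against 7.25% and 4.95% of all genes (12.2% in all), so the share of the 10 genes called there was near that of all genes. Averaged over the treatments 6 were higher and 1 lower, against 11.2% and 9.53% of all genes (20.7% in all). The median log2 difference of the 10 genes was 0.36 with CM, 0.39 with TNFa and 0.03 with TGFb, where that of all genes was -0.01, 0.02 and -0.01. When each library was scaled to an equal total, the calls over all genes with CM were 627 higher and 874 lower in place of 813 and 545, and with TGFb 830 higher and 1494 lower in place of 1048 and 716, with a median of all genes of -0.12 with TGFb. The averaged comparison then had 1365 higher and 2009 lower in place of 1614 and 1377. Under that scaling the 10 genes gave the same counts with CM and with TNFa, while with TGFb 0 higher and 2 lower were called. In bulk RNA, fewer cells of a type and less RNA per cell cannot be told apart.

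**Figure D1:**
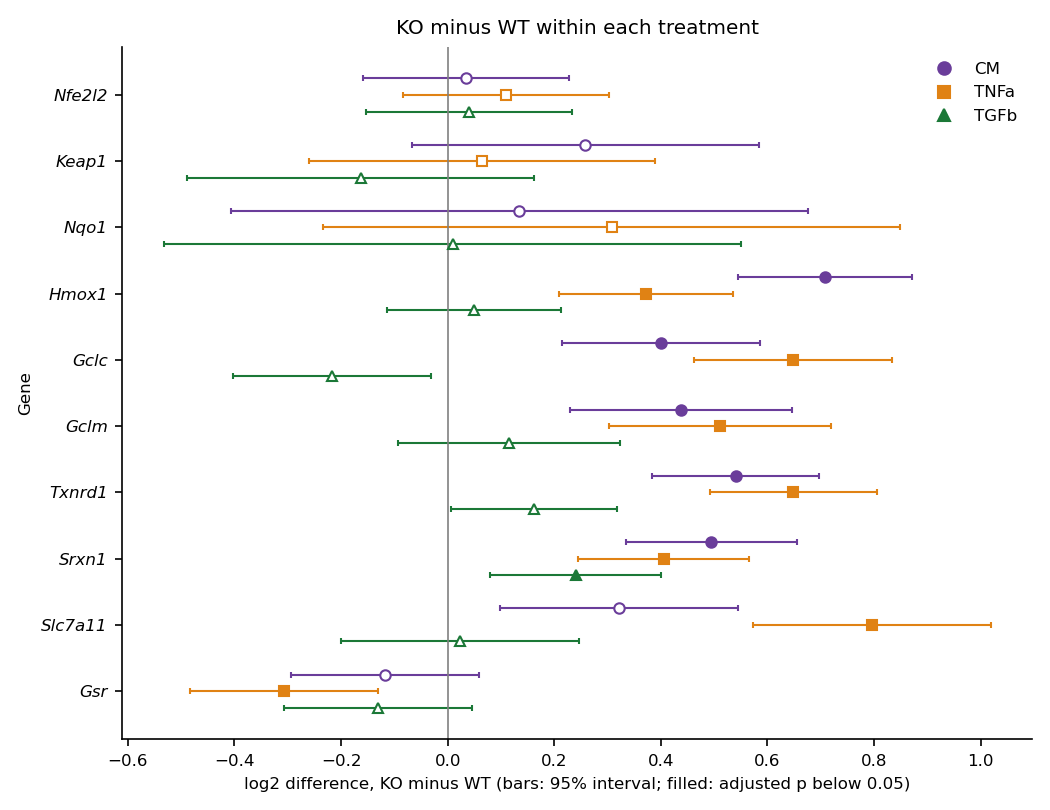
Difference between KO and WT in the 10 genes on the log2 scale (horizontal axis, KO minus WT; genes run down the page), with circles for CM, squares for TNFa and triangles for TGFb, bars for the 95% interval of the fit and filled symbols for adjusted p below 0.05. The filled symbols to the right of 0 are 5 with CM, 6 with TNFa and 1 with TGFb, and Gsr with TNFa is the only filled symbol to the left.

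Glutamate-cysteine ligase makes the first and rate-limiting step of glutathione synthesis, and Gclc encodes its catalytic subunit (ENSMUSG00000032350, chr9:77661817-77701768, plus strand; coordinates here and for the other genes are the deposited table's, on mm39). With CM Gclc stood at 31552, 31408 and 30267 in KO, against 25575, 21423 and 23791 in WT. With TNFa it stood at 38674, 43180.4 and 36491.5 in KO, against 25542, 25137 and 24697 in WT. With TGFb it stood at 14390.3, 16076 and 12585 in KO, against 15892, 16597 and 17339 in WT. The KO libraries lay above all WT libraries with CM and with TNFa, while with TGFb the genotypes overlapped and the mean was lower in KO. Gclc rose in KO with CM by 0.40 ± 0.09 on the log2 scale (SE, 1.32-fold, adjusted p = 0.00348) and with TNFa by 0.65 ± 0.09 (1.57-fold, adjusted p = 1.12e-05). With TGFb the difference was -0.22 ± 0.09 and did not pass (adjusted p = 0.132, unadjusted 95% interval -0.40 to -0.03). It passed with libraries scaled to equal totals (-0.33, adjusted p = 0.00735) and without TGFb KO replicate 2 (-0.30, adjusted p = 0.0311).

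Gclm encodes the modifier subunit that improves the ligase's kinetics (ENSMUSG00000028124, chr3:122039206-122064382, plus strand). With CM its value was 8303, 7777 and 7227 in KO, against 5725, 5080.0 and 6458 in WT. With TNFa the value was 6995, 8594 and 6536 in KO, against 5052, 5141 and 5224 in WT. With TGFb the value was 6829.7, 7966 and 6230.4 in KO, against 6324, 6654 and 6343 in WT. The KO libraries of Gclm lay above all WT libraries with CM and with TNFa, and on both sides of them with TGFb. It rose in KO by 0.44 ± 0.10 with CM (1.35-fold, adjusted p = 0.00435) and by 0.51 ± 0.10 with TNFa (1.43-fold, adjusted p = 0.00116), and with TGFb the difference was 0.11 ± 0.10 (adjusted p = 0.554). The ratio of the catalytic to the modifier subunit, Gclc over Gclm of the deposited values, was lowest with TGFb in both genotypes. Its middle library was at 4.04 in CM KO and 4.22 in CM WT, at 5.53 in TNFa KO and 4.89 in TNFa WT, and at 2.02 in TGFb KO and 2.51 in TGFb WT. Averaged over treatments the ratio differed by -0.08 on the log2 scale, KO minus WT, with p = 0.232 in an exact two-sided permutation test of genotypes within treatments (adjusted over the 2 ratios tested p = 0.464, smallest possible p 0.00025). By treatment the difference was -0.04 with CM, 0.14 with TNFa and -0.33 with TGFb. The averaged test joins these opposite signs, so it cannot show that the ratio was alike under each treatment. With TGFb the ratio was 2.02 to 2.11 in KO and 2.49 to 2.73 in WT, without overlap. The genotypes overlapped with CM and TNFa.

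Slc7a11 encodes xCT, the light chain of the cystine and glutamate exchanger that supplies cysteine for glutathione (ENSMUSG00000027737, chr3:49846975-50398064, minus strand). With CM its values were 11765, 11813 and 11533 in KO, against 9799, 8842 and 9482 in WT. With TNFa the values were 17487, 21276 and 16984 in KO, against 9911, 10622 and 11474 in WT. With TGFb the values were 3974, 6214.5 and 4743 in KO, against 4770.4, 4786 and 4885 in WT. With TNFa every KO library stood above every WT library by a wide margin, with CM they were apart by less, and with TGFb the KO libraries spread on both sides of a narrow WT group. Slc7a11 rose in KO with TNFa by 0.80 ± 0.11 (1.74-fold, adjusted p = 7.85e-06). With CM the difference of 0.32 ± 0.11 missed the threshold (adjusted p = 0.0623), which it passed in 6 of 28 alternatives, among them the fits without TNFa KO replicate 2, TGFb KO replicate 1 and TGFb KO replicate 2 (adjusted p 0.0447, 0.0281 and 0.0166). With TGFb it was 0.02 ± 0.11 (95% interval -0.20 to 0.25). Slc3a2, the heavy chain of the same exchanger, differed by -0.05 ± 0.08 with CM and -0.11 ± 0.08 with TNFa, neither passing, and fell in KO with TGFb by 0.39 (SE 0.08, adjusted p = 7.70e-04). The pathway's last enzyme, glutathione synthetase (Gss), differed by -0.27 ± 0.18 with CM, 0.14 ± 0.18 with TNFa and 0.32 ± 0.18 with TGFb, none of which passed.

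**Figure D2:**
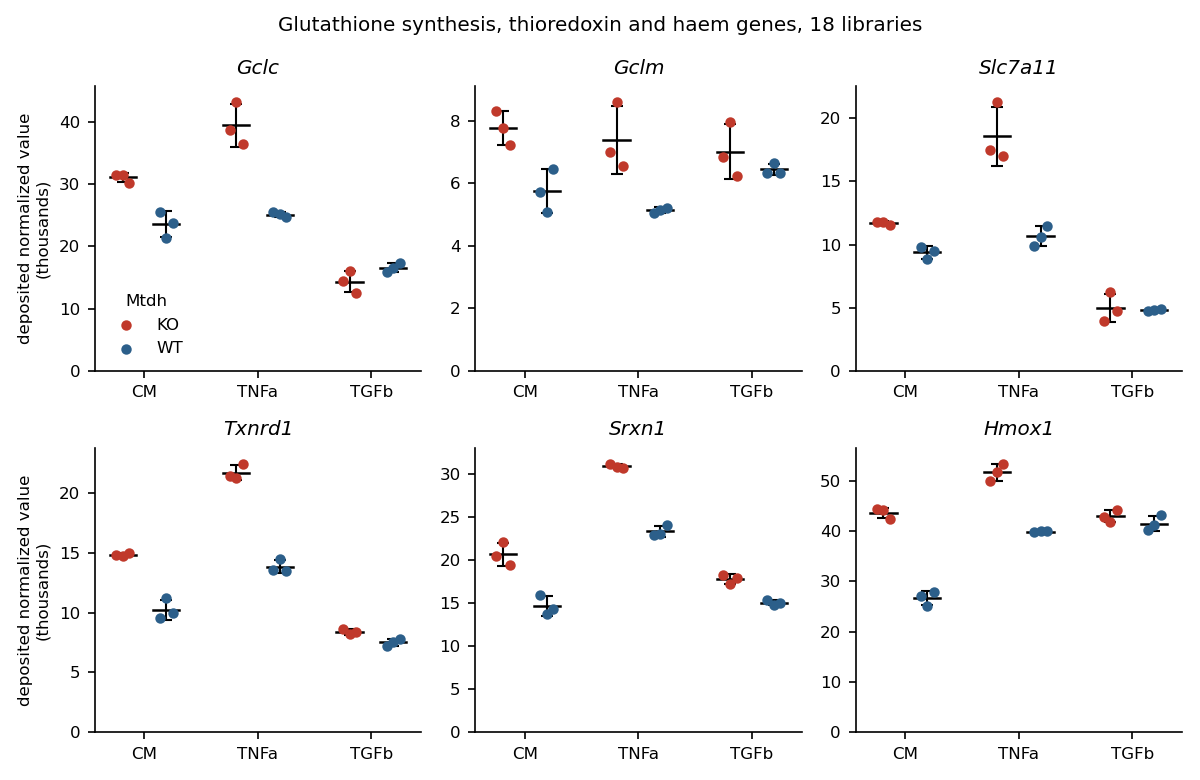
DESeq2-normalized values (vertical axes, starting at 0) of Gclc, Gclm, Slc7a11, Txnrd1, Srxn1 and Hmox1 in the 18 libraries, with KO in red left of WT in blue for each treatment, and black bars for the mean and SD of 3 libraries. The genes drawn are the 6 of the 10 called higher in KO with TNFa, so they do not stand for all 10. In TNFa the KO libraries stand above the WT libraries in each of the 6 panels. Of the genes not drawn, Nfe2l2, Keap1 and Nqo1 overlap between the genotypes with TNFa, and Gsr is lower in KO. The share of all genes without overlap is not given here. With TGFb the genotypes overlap for Gclc, Gclm, Slc7a11 and Hmox1.

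Thioredoxin reductase 1, encoded by Txnrd1, passes electrons from NADPH to thioredoxin (ENSMUSG00000020250, chr10:82669785-82733547, plus strand). Eid3 lies within the Txnrd1 span on the same strand, so reads of the overlap cannot be assigned to one of them. With CM Txnrd1 was measured at 14808, 14742.5 and 14943 in KO, against 9565, 11177 and 9924 in WT. With TNFa it was measured at 21402, 21225 and 22425 in KO, against 13575, 14426 and 13500 in WT. With TGFb it was measured at 8653, 8198 and 8349 in KO, against 7222, 7518 and 7785 in WT. The genotypes did not overlap under any of the 3 treatments, and the KO libraries were higher each time. Txnrd1 rose in KO by 0.54 ± 0.08 with CM (1.45-fold, adjusted p = 1.02e-05) and by 0.65 ± 0.08 with TNFa (1.57-fold, adjusted p = 5.65e-07), and with TGFb the 0.16 ± 0.08 did not pass (adjusted p = 0.192). Srxn1 encodes sulfiredoxin, which repairs overoxidised peroxiredoxins (ENSMUSG00000032802, chr2:151947436-151953297, plus strand). With CM Srxn1 came to 20428, 22116 and 19413 in KO, against 15939.5, 13764.5 and 14291 in WT. With TNFa it came to 31195, 30784.5 and 30706 in KO, against 22916, 22998 and 24066 in WT. With TGFb it came to 18299, 17178 and 17942 in KO, against 15374, 14796.5 and 15051 in WT. Here too the KO libraries were above the WT libraries in all 3 treatments, and Srxn1 was the 1 gene of the 10 called with each of them. It rose in KO by 0.49 ± 0.08 with CM (1.41-fold, adjusted p = 5.46e-05), by 0.41 ± 0.08 with TNFa (1.32-fold, adjusted p = 8.63e-04) and by 0.24 ± 0.08 with TGFb (1.18-fold, adjusted p = 0.0416). The TGFb call stood close to the threshold. It was lost without any 1 of the 3 TGFb WT libraries, TGFb KO replicate 1 or 3, CM KO replicate 1, TNFa KO replicate 1 or TNFa WT replicate 1 (adjusted p 0.0518 to 0.13), with no filter on low values (adjusted p = 0.0511) and with libraries scaled to equal totals (0.13, adjusted p = 0.242).

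Glutathione reductase, encoded by Gsr, regenerates glutathione from its disulphide (ENSMUSG00000031584, chr8:34142551-34188192, plus strand). With CM Gsr read 9540.0, 10416 and 8919 in KO, against 10083, 10868 and 10313 in WT. With TNFa it read 9717, 9315 and 9584 in KO, against 11976, 10559.5 and 12971.5 in WT. With TGFb it read 9356, 9114 and 9345 in KO, against 9315, 10003 and 11207 in WT. Means were lower in KO under each treatment, and the genotypes overlapped with CM and TGFb but not with TNFa. Gsr fell in KO with TNFa by 0.31 (SE 0.09, 0.809-fold, adjusted p = 0.0234), and differed by -0.12 ± 0.09 with CM and -0.13 ± 0.09 with TGFb, neither passing. With libraries scaled to equal totals the TGFb difference passed (-0.24, adjusted p = 0.0435). The TNFa call was lost without TNFa KO replicate 1, 2 or 3 or TNFa WT replicate 1 or 3 (adjusted p 0.0545 to 0.167) and with quantile normalization (-0.20, adjusted p = 0.168). Averaged over treatments the Gsr difference was -0.18 ± 0.05 (adjusted p = 0.00697).

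Hmox1 encodes haem oxygenase 1, which opens the haem ring and releases iron, carbon monoxide and biliverdin (ENSMUSG00000005413, chr8:75820249-75827218, plus strand). With CM Hmox1 reached 44299, 44084 and 42321 in KO, against 27149, 25139.5 and 27788 in WT. With TNFa it reached 49861, 51641 and 53368 in KO, against 39820.5, 39932 and 39912 in WT. With TGFb it reached 42826, 41753 and 44132 in KO, against 40100.1, 41227 and 43071.5 in WT. The CM WT libraries were the lowest of all 18, the TNFa KO libraries the highest, and with TGFb the genotypes overlapped. Hmox1 rose in KO with CM by 0.71 ± 0.08 (1.63-fold, adjusted p = 2.30e-07), more than any other of the 10 genes with that treatment, and with TNFa by 0.37 ± 0.08 (1.29-fold, adjusted p = 0.00257). With TGFb it differed by 0.05 ± 0.08 (adjusted p = 0.777). Nqo1 encodes a quinone reductase that is a common marker of NRF2 activity (ENSMUSG00000003849, chr8:108114857-108129839, minus strand). It was low in these hepatocytes, between 171 and 426 in the 18 libraries. Its means were 306 ± 61 in KO and 278 ± 53.4 in WT with CM, 332 ± 90.5 in KO and 275 ± 104 in WT with TNFa, and 225 ± 29.2 in KO and 225 ± 40.5 in WT with TGFb (SD, n = 3 libraries each). The genotypes overlapped each time, and the differences of 0.13 ± 0.26, 0.31 ± 0.26 and 0.01 ± 0.26 with CM, TNFa and TGFb did not pass, with wide intervals (-0.23 to 0.85 with TNFa).

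No genotype difference of the factor or of its repressor passed under any of the 3 treatments. Nfe2l2, which encodes NRF2 (ENSMUSG00000015839, chr2:75505857-75534986, minus strand), stood with CM at 3269, 3540.3 and 3621 in KO, against 3466, 3524.5 and 3191 in WT. With TNFa Nfe2l2 stood at 4146, 3991 and 3187 in KO, against 3503, 3426 and 3499.6 in WT. With TGFb Nfe2l2 stood at 2999, 3257 and 2802 in KO, against 2801, 2993 and 3009 in WT. The genotypes overlapped under all 3 treatments. The differences were 0.03 ± 0.09 with CM (95% interval -0.16 to 0.23), 0.11 ± 0.09 with TNFa (-0.08 to 0.30) and 0.04 ± 0.09 with TGFb (-0.15 to 0.23), none called. Keap1 (ENSMUSG00000003308, chr9:21141026-21150658, minus strand) had means of 575 ± 44.7 in KO and 481 ± 52.2 in WT with CM, 488 ± 26.8 in KO and 467 ± 38.4 in WT with TNFa, and 475 ± 52.1 in KO and 535 ± 88.3 in WT with TGFb (SD, n = 3 libraries each). Its KO libraries lay above the WT libraries with CM, and the genotypes overlapped with TNFa and TGFb. Keap1 differed by 0.26 ± 0.16, 0.06 ± 0.16 and -0.16 ± 0.16 with CM, TNFa and TGFb, none called. The ratio of Nfe2l2 to Keap1 differed between KO and WT by 0.01 on the log2 scale, averaged over treatments (exact two-sided permutation p = 0.93, adjusted over the 2 ratios p = 0.93). That average joins differences of -0.22 with CM, 0.05 with TNFa and 0.20 with TGFb, and the genotypes overlapped under each treatment. NRF2 is controlled mainly as a protein, which these data do not measure.

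**Figure D3:**
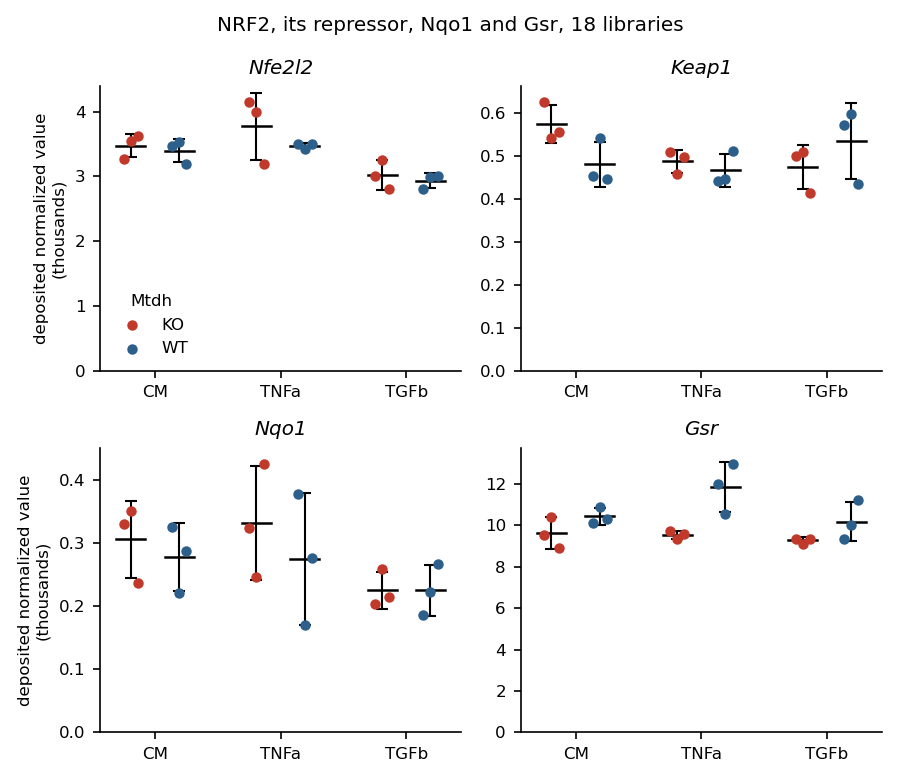
DESeq2-normalized values (vertical axes, starting at 0) of Nfe2l2, Keap1, Nqo1 and Gsr in the 18 libraries, with KO in red left of WT in blue for each treatment, and black bars for the mean and SD of 3 libraries. The 2 genotypes overlap for Nfe2l2 and Nqo1 under all 3 treatments, and the KO libraries of Gsr with TNFa lie below the WT libraries.

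Whether the genotype difference itself depended on the treatment was tested in the same fit. By an F-test 4 of the 10 genes were called, Gclc (adjusted p = 0.00108), Hmox1 (0.00521), Slc7a11 (0.0181) and Txnrd1 (0.0274), where 1.7% of all genes were. Gclm (adjusted p = 0.233) and Srxn1 (0.397) were not, so a dependence on treatment was not shown for them. Gclc and Hmox1 stayed called in each of 27 alternatives. Slc7a11 was not called without TNFa KO replicate 2 (adjusted p = 0.0561) or TNFa WT replicate 1 (0.0613). Txnrd1 was not called without CM KO replicate 1 (0.0526), TNFa KO replicate 1 (0.0541), TNFa WT replicate 1 (0.0620) or 3 (0.0669), TGFb KO replicate 3 (0.0611) or TGFb WT replicate 2 (0.0684) or 3 (0.0870).

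Pairwise, the KO minus WT difference with CM was larger than that with TGFb for 2 of the 10 genes, where 0.242% of all genes were called in that direction and 0.249% in the other (0.491% in all). These were Hmox1, by 0.66 ± 0.11 (adjusted p = 0.00364), and Gclc, by 0.62 ± 0.13 (adjusted p = 0.0228). The Gclc call was lost with quantile normalization (0.42, adjusted p = 0.147) and without CM KO replicate 1, 2 or 3, TGFb KO replicate 3 or TGFb WT replicate 1, 2 or 3 (adjusted p 0.0522 to 0.0919). The difference with TNFa was larger than that with TGFb for 3 genes, where 0.249% of all genes were called in that direction and 0.851% in the other (1.1% in all). They were Gclc, by 0.86 ± 0.13 (adjusted p = 4.72e-04), Slc7a11, by 0.77 ± 0.15 (adjusted p = 0.0091), and Txnrd1, by 0.49 ± 0.11 (adjusted p = 0.0212). Txnrd1 was lost there without TNFa KO replicate 3, TNFa WT replicate 1 or 3 or TGFb WT replicate 2 or 3 (adjusted p 0.051 to 0.0647). Between CM and TNFa none of the 10 genes was called by limma (0.63% of all genes were, 0.574% higher and 0.0553% lower). The 2 genes furthest apart were Hmox1, with 0.34 ± 0.11 for CM minus TNFa (unadjusted p = 0.00577, adjusted p = 0.165), and Slc7a11, with -0.47 ± 0.15 (unadjusted p = 0.00457, adjusted p = 0.151), and for the other 8 the unadjusted p was above 0.05. With equal totals the calls over all genes were 26 higher and 16 lower for CM minus TNFa in place of 83 and 8, 45 and 28 for CM minus TGFb in place of 35 and 36, and 101 and 42 for TNFa minus TGFb in place of 36 and 123. With quantile normalization they were 43 and 12 for CM minus TNFa and 55 and 86 for TNFa minus TGFb.

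The second question is how the treatments differed within a genotype. Comparisons that share a group share its libraries, so they do not support each other. TNFa against TGFb gave the most calls among them. In KO 6 of the 10 genes were higher with TNFa and 0 lower, where 10.1% and 12.3% of all genes were (22.4% in all), and in WT 4 were higher and 1 lower, where 5.33% and 8.06% were (13.4% in all). Slc7a11 averaged 18582 ± 2346 with TNFa and 4977 ± 1138 with TGFb in KO, and 10669 ± 782 with TNFa and 4814 ± 62 with TGFb in WT (SD, n = 3 libraries each). It was higher with TNFa by 1.92 ± 0.11 in KO (3.78-fold) and by 1.15 ± 0.11 in WT (2.21-fold). Txnrd1 was higher by 1.37 ± 0.08 in KO (2.58-fold) and 0.88 ± 0.08 in WT, Gclc by 1.46 ± 0.09 in KO (2.76-fold) and 0.60 ± 0.09 in WT, and Srxn1 by 0.80 ± 0.08 in KO and 0.63 ± 0.08 in WT. The adjusted p-values of these 4 genes were at most 1.36e-05. Hmox1 was higher with TNFa in KO (0.27 ± 0.08, adjusted p = 0.0141; lost without TNFa KO replicate 3, adjusted p = 0.061) and differed by -0.06 ± 0.08 in WT. Nfe2l2 was higher in KO (0.32 ± 0.09, adjusted p = 0.0142), a call lost without TNFa KO replicate 1 or 2 or TGFb KO replicate 3 (adjusted p 0.0737 to 0.109) or with only the 2 groups compared in the fit (0.0502), and differed by 0.25 ± 0.09 in WT (adjusted p = 0.0893), where it passed in 3 alternatives (adjusted p 0.0075 to 0.0495). Gclm was lower with TNFa in WT (-0.33 ± 0.10, adjusted p = 0.0285) and in KO differed by 0.07 ± 0.10. The Gclm call was lost without any 1 of the 6 libraries compared (adjusted p 0.0604 to 0.104) and with equal totals (-0.21, adjusted p = 0.153). Gsr did not pass in either genotype (0.04 ± 0.09 in KO and 0.22 ± 0.09 in WT), but did with quantile normalization (0.24, adjusted p = 0.0354 in KO and 0.27, adjusted p = 0.0276 in WT). It also passed with equal totals (0.30, adjusted p = 0.00522 in KO and 0.33, adjusted p = 0.00433 in WT). In WT it passed without TNFa WT replicate 2 (adjusted p = 0.031) or TGFb WT replicate 3 (0.0453).

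Scaling to equal totals shifted the median of all genes in the comparison of TNFa with TGFb to 0.29 in KO and 0.11 in WT, in place of 0.04 and -0.00. The calls over all genes then split into 3756 higher and 1119 lower in KO, in place of 1458 and 1779, and 1370 higher and 873 lower in WT, in place of 771 and 1165. The 4 genes Slc7a11, Txnrd1, Gclc and Srxn1 were called higher in both genotypes under each alternative, and their differences exceeded these shifts. Of the 10 genes 9 higher and 0 lower were called in KO and 6 higher and 0 lower in WT with that scaling. Hepatocyte markers moved with the same comparison, with 10 of 11 lower with TNFa in KO and 7 of 11 in WT (median -0.98 and -0.49), and macrophage markers were higher with TNFa for 3 of 19 in KO and for 4 (with 1 lower) in WT. Their part in the differences of the 10 genes was not tested.

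**Figure D4:**
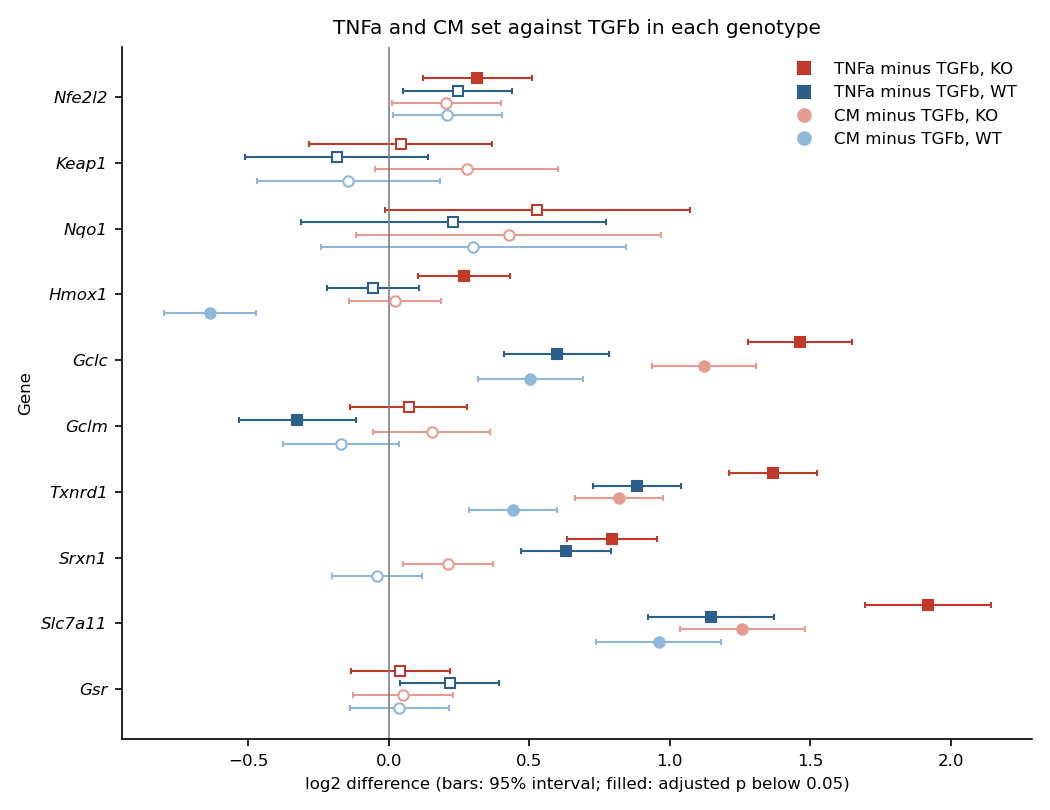
Differences of TNFa (squares) and CM (circles) from TGFb in the 10 genes on the log2 scale (horizontal axis), with KO in red shades above WT in blue shades for each pair, bars for the 95% interval of the fit and filled symbols for adjusted p below 0.05. Slc7a11, Gclc and Txnrd1 have all 4 symbols filled and right of 0, from 0.44 for Txnrd1 with CM in WT to 1.92 for Slc7a11 with TNFa in KO. The filled symbols left of 0 are Hmox1 with CM in WT, at -0.64, and Gclm with TNFa in WT, at -0.33.

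Against TGFb, CM gave fewer calls. In KO 3 of the 10 genes were higher with CM and 0 lower, where 5.2% and 5.39% of all genes were (10.6% in all), and in WT 3 were higher and 1 lower, where 5.76% and 6.09% were (11.8% in all). The 3 genes were the same in both genotypes: Slc7a11 (1.26 ± 0.11 in KO and 0.96 ± 0.11 in WT), Gclc (1.12 ± 0.09 in KO and 0.50 ± 0.09 in WT) and Txnrd1 (0.82 ± 0.08 in KO and 0.44 ± 0.08 in WT), with adjusted p-values of at most 2.32e-04. The gene lower in WT was Hmox1, which averaged 26692 ± 1382 with CM and 41466 ± 1500.1 with TGFb in WT, a difference of -0.64 ± 0.08 (adjusted p = 1.08e-06). In KO it averaged 43568 ± 1085 with CM and 42904 ± 1191 with TGFb, a difference of 0.02 ± 0.08 (adjusted p = 0.911). With equal totals the calls over all genes were 1243 higher and 492 lower in KO, in place of 751 and 779, and 1102 higher and 626 lower in WT, in place of 832 and 880, with a median of all genes of 0.10 in KO. Srxn1 and Nfe2l2 were then called higher with CM in KO too (0.31, adjusted p = 0.0038, and 0.31, adjusted p = 0.0309). Of the 11 hepatocyte markers 0 higher and 3 lower passed with CM in KO (median -0.22) and 1 higher and 4 lower in WT (-0.10), and with equal totals 0 higher and 2 lower in KO and 2 higher and 2 lower in WT. Of the 19 macrophage markers 1 higher and 0 lower passed in KO and 2 higher and 1 lower in WT. Their part in the differences of the 10 genes was not tested.

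Set against TNFa, CM had 0 of the 10 genes higher and 5 lower in KO, where 8.38% and 4.32% of all genes were (12.7% in all), and 0 higher and 3 lower in WT, where 6.81% and 5.46% were (12.3% in all). Srxn1 was lower with CM in KO (-0.58 ± 0.08, adjusted p = 2.25e-06) and in WT (-0.67 ± 0.08, adjusted p = 3.27e-07). Txnrd1 likewise was lower in KO (-0.55 ± 0.08, adjusted p = 3.98e-06) and in WT (-0.44 ± 0.08, adjusted p = 1.37e-04). Slc7a11 was lower with CM in KO (-0.66 ± 0.11, adjusted p = 4.90e-05) and differed by -0.19 ± 0.11 in WT (adjusted p = 0.311). Gclc was lower in KO (-0.34 ± 0.09, adjusted p = 0.00965), a call lost without TNFa KO replicate 2 (-0.27, adjusted p = 0.0749), and differed by -0.09 ± 0.09 in WT. Hmox1 was lower with CM in KO (-0.24 ± 0.08, adjusted p = 0.0394) and in WT (-0.58 ± 0.08, adjusted p = 4.70e-06). The Hmox1 call in KO was lost without any 1 of the 6 libraries compared, TNFa WT replicate 1 or TGFb WT replicate 1 or 2 (adjusted p 0.0513 to 0.136), and with no filter on low values (adjusted p = 0.0562). With equal totals the calls over all genes in KO were 878 higher and 1906 lower, in place of 1211 and 624, with a median of all genes of -0.17, and in WT 858 higher and 1062 lower, in place of 985 and 789. Quantile normalization gave 1158 higher and 928 lower in KO. Of the 11 hepatocyte markers 11 higher and 0 lower passed with CM in KO (median 0.66) and 8 higher and 0 lower in WT (0.52). Of the 19 macrophage markers 0 higher and 1 lower passed in KO and 0 higher and 3 lower in WT. What these markers contribute to the differences of the 10 genes was not tested.

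Ranked by group mean, the 6 groups stood in nearly the same order for Slc7a11, Txnrd1 and Gclc and in another for Srxn1. Slc7a11 and Txnrd1 ran from TNFa KO through CM KO, TNFa WT, CM WT and TGFb KO down to TGFb WT. Of these neighbours in the order, TGFb KO and TGFb WT overlapped for Slc7a11 and none did for Txnrd1. Gclc had the same order but for its last places, held by TGFb WT and then TGFb KO, and its TNFa WT and CM WT libraries, and those of both TGFb groups, overlapped. Srxn1 ran from TNFa KO through TNFa WT, CM KO, TGFb KO and TGFb WT to CM WT, where the last 2 overlapped. Hmox1 ran from TNFa KO through CM KO, TGFb KO, TGFb WT and TNFa WT to CM WT, with overlap from CM KO to TGFb KO and from there to TGFb WT. Gclm was led by the 3 KO groups and then the 3 WT groups, each overlapping its neighbour.

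Among 11010 tested genes with a mean of at least 50, those whose 6 group means lay closest to each of the 4 genes with the widest range were found by the root-mean-square distance of centred log2 group means. For Slc7a11 these were Angpt2 (0.11), Ifi204 (0.12) and Slc40a1 (0.13), the last of which encodes ferroportin, the cellular iron exporter. For Txnrd1 they were Hells (0.12), Jdp2 (0.14) and Zeb2 (0.15). For Gclc they were Mcm2 (0.08), Gbp9 (0.09) and Gltp (0.10), and for Srxn1 Sema4b (0.04), Plaur (0.09) and Mcm3 (0.09). Mcm2 and Mcm3 encode subunits of the replicative helicase, and Plaur the urokinase receptor.

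The other genes of the pathway were counted from lists. Beside each list stand the shares of all genes called in KO, 5.62% higher and 3.77% lower with CM. With TNFa these shares were 4.19% and 3.7%, and with TGFb 7.25% and 4.95%. Of 14 genes that regulate NRF2 other than Nfe2l2 and Keap1, 1 was higher and 1 lower in KO with CM, 0 and 1 with TNFa, and 3 and 2 with TGFb (3 and 6 with equal totals), with medians of -0.01, -0.05 and -0.11 (all genes -0.01, 0.02 and -0.01). With equal totals 830 of 14441 genes were higher and 1494 lower in KO with TGFb. Trim25 was the gene lower in KO with CM (-0.44 ± 0.08, adjusted p = 5.25e-04) and with TNFa (-0.42 ± 0.08, adjusted p = 0.00102), with the smallest p of the list in both. Sqstm1, which encodes p62, a protein that sequesters KEAP1, rose in KO with CM (0.35 ± 0.08, adjusted p = 0.00522). Maff and Mafk, small MAF partners of NRF2, rose in KO with TGFb (0.52 ± 0.13, adjusted p = 0.00481, and 0.46 ± 0.11, adjusted p = 0.00488). Bach1, the repressor that competes with NRF2 at antioxidant response elements, differed by -0.07 ± 0.08 with CM, -0.04 ± 0.08 with TNFa and -0.01 ± 0.08 with TGFb, none called.

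Of the other genes of the glutathione cycle 24 were tested. In KO there were 7 higher and 0 lower with CM, 4 higher and 0 lower with TNFa and 8 higher and 2 lower with TGFb, with medians of 0.19, 0.16 and 0.27. Over all genes the shares were 5.62% and 3.77%, 4.19% and 3.7%, and 7.25% and 4.95%, with medians of -0.01, 0.02 and -0.01. The 2 genes lower with TGFb were Slc3a2 and Gpx7, a peroxidase gene at 0 in 2 of the 3 TGFb KO libraries. Cbs, the first enzyme of the transsulfuration route that makes cysteine from homocysteine, rose in KO under each treatment (0.60 ± 0.13 with CM, 0.69 ± 0.13 with TNFa and 1.23 ± 0.13 with TGFb, adjusted p at most 0.00187). Cth, the second enzyme of that route, rose with CM (0.73 ± 0.08, adjusted p = 3.40e-07) and with TGFb (0.59 ± 0.08, adjusted p = 6.17e-06), and with TNFa differed by 0.05 ± 0.08 (adjusted p = 0.812). Gpx1, which reduces hydrogen peroxide at the cost of glutathione, rose with CM (0.75 ± 0.11, adjusted p = 2.84e-05) and TGFb (0.81 ± 0.11, adjusted p = 5.32e-06) and differed by 0.11 ± 0.11 with TNFa. Abcc2, which exports glutathione conjugates into bile, rose under each treatment, by 0.32 ± 0.09 with CM, 0.45 ± 0.09 with TNFa and 0.77 ± 0.09 with TGFb. Between treatments, TNFa against TGFb gave 4 higher and 7 lower in KO and 3 higher and 4 lower in WT, and with equal totals 8 higher and 5 lower in KO and 6 higher and 4 lower in WT. The shares of all genes called without that scaling were 10.1% and 12.3% in KO and 5.33% and 8.06% in WT. With it, 3756 of 14441 genes were higher and 1119 lower in KO, and 1370 higher and 873 lower in WT. The exporter genes Abcc1 (1.27 ± 0.12 in KO and 1.14 ± 0.12 in WT) and Abcc4 (1.89 ± 0.16 in KO and 1.04 ± 0.16 in WT) were among the higher ones, and Cbs (-1.06 ± 0.13 in KO and -0.53 ± 0.13 in WT) among the lower.

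Of 16 thioredoxin and peroxiredoxin genes, 7 higher and 0 lower were counted in KO with CM, 3 higher and 0 lower with TNFa and 7 higher and 0 lower with TGFb, with medians of 0.34, 0.05 and 0.34. Over all genes the shares were 5.62% and 3.77%, 4.19% and 3.7%, and 7.25% and 4.95%, with medians of -0.01, 0.02 and -0.01. Txnip, whose protein binds and inhibits thioredoxin, rose in KO under each treatment (0.66 ± 0.15 with CM, 1.39 ± 0.15 with TNFa and 1.29 ± 0.15 with TGFb). Cat, the peroxisomal catalase, did so too (0.36 ± 0.09, 0.52 ± 0.09 and 0.74 ± 0.09 with CM, TNFa and TGFb). Prdx1 rose in KO with CM (0.75 ± 0.14, adjusted p = 5.58e-04), while Txn1, the substrate of Txnrd1, passed with none of the treatments (0.31 ± 0.12 with CM, -0.24 ± 0.12 with TNFa and -0.29 ± 0.12 with TGFb). Of 11 genes that supply NADPH, 3 higher and 1 lower were counted in KO with CM, 1 higher and 2 lower with TNFa and 4 higher and 2 lower with TGFb, with medians of 0.12, 0.10 and -0.08. Aldh1l1, a folate enzyme that yields NADPH, rose in KO with each (1.03 ± 0.09, 0.98 ± 0.09 and 1.37 ± 0.09 with CM, TNFa and TGFb). Pgd, of the pentose phosphate pathway, passed in none of the genotype comparisons (0.17 ± 0.09, 0.11 ± 0.09 and -0.14 ± 0.09) and was higher with TNFa than with TGFb (1.02 ± 0.09 in KO and 0.76 ± 0.09 in WT).

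Of 25 other known NRF2 targets, mostly enzymes of conjugation and drug metabolism, 8 higher and 1 lower were counted in KO with CM, 7 higher and 2 lower with TNFa and 12 higher and 1 lower with TGFb, with medians of 0.47, 0.21 and 0.53. Over all genes the shares were 5.62% and 3.77%, 4.19% and 3.7%, and 7.25% and 4.95%, with medians of -0.01, 0.02 and -0.01. Gsta3, a glutathione S-transferase, rose in KO by 1.10 ± 0.09 with CM, 0.79 ± 0.09 with TNFa and 1.31 ± 0.09 with TGFb, and Gsta2 by 2.30 ± 0.30, 1.60 ± 0.30 and 2.50 ± 0.30. Both have close paralogs between which the counting could split reads. Osgin1, an oxidative stress gene, rose with TNFa (0.57 ± 0.16, adjusted p = 0.0286) and TGFb (0.81 ± 0.16, adjusted p = 8.28e-04) and differed by 0.47 ± 0.16 with CM. With TNFa against TGFb 4 higher and 11 lower were counted in KO and 5 higher and 10 lower in WT, with medians of -0.28 and -0.22. The shares of all genes were 10.1% and 12.3% in KO and 5.33% and 8.06% in WT. With equal totals the counts were 9 higher and 9 lower in KO and 6 higher and 7 lower in WT, and the medians -0.02 and -0.10. Of all 14441 genes tested with that scaling, 3756 were higher and 1119 lower in KO, with a median of 0.29. In WT 1370 were higher and 873 lower, with a median of 0.11. Gsta3 was among the lower ones, at -0.99 ± 0.09 in KO and -0.47 ± 0.09 in WT. Hepatocyte markers had medians of 0.30, -0.05 and 0.27 in KO against WT with CM, TNFa and TGFb. In the TNFa against TGFb comparison their medians were -0.98 in KO and -0.49 in WT. Their part in the results on this list and on the glutathione cycle was not tested.

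**Figure D5:**
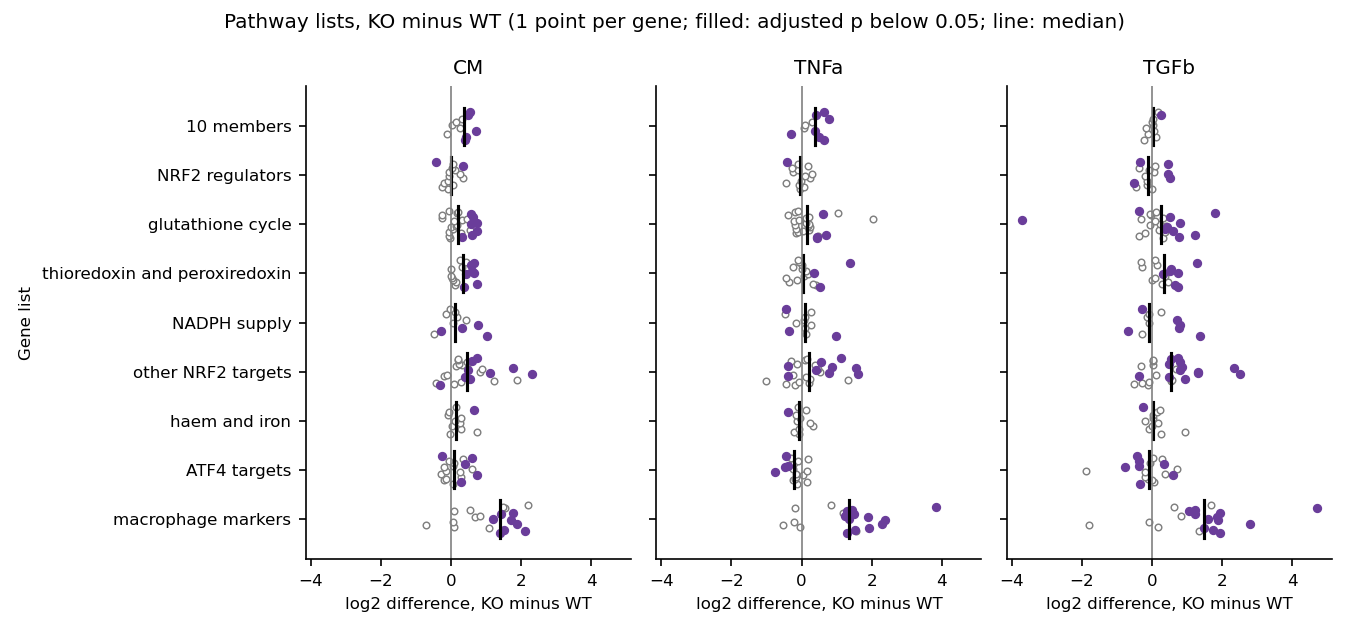
KO minus WT differences on the log2 scale (horizontal axes) with CM, TNFa and TGFb, 1 point per gene, for the 10 genes and for lists of NRF2 regulators, glutathione cycle, thioredoxin and peroxiredoxin, NADPH supply, other NRF2 targets, haem and iron, ATF4 target and macrophage marker genes (rows), with filled points for adjusted p below 0.05 and a black line for the median. The median of the 10 genes lies at 0.36, 0.39 and 0.03, that of the other NRF2 targets at 0.47, 0.21 and 0.53, and that of the macrophage markers at 1.40, 1.36 and 1.48, with CM, TNFa and TGFb in that order.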

How the data were processed

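RNA-seq of 18 libraries was analysed. Per the labels' protocols, total RNA was depleted of ribosomal RNA with QIAseq FastSelect and made into libraries with PrepX. The authors used STAR 2.7.8a, Partek and DESeq2 with mm39, per the submitters' processing notes, which give no order or settings. The authors deposited 1 signal per gene and library, the DESeq2-normalized value. Low values were multiples of 1 step per library (0.688 to 1.25), taken as 1 read to estimate depth, but only 72.0% to 77.4% of values up to 200 reads were whole within 0.05 reads, so reads were not recovered and no count test was run.

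Each value plus 1 was log2-transformed, which understates changes of low genes. The fit took the 14455 of 16873 genes with a value of 10 or more in 3 or more libraries. limma 3.58.1 (R 4.3.3, limma-trend) fitted 6 group means to all 18 libraries, with Benjamini-Hochberg adjustment over all tested genes and calls at adjusted p below 0.05. Errors are SE for log2 differences and SD for means. The Gclc to Gclm and Nfe2l2 to Keap1 ratios were tested by exact permutation (8000 arrangements, two-sided). The 10 genes, the lists, the markers and the motifs were chosen with earlier results of these data known, so counts over lists are descriptions. All 10 genes were named, and from each other list up to 4 genes of smallest p in a comparison and partners of the 10 genes. Alternatives left out each library in turn, dropped the filter or raised it to a mean of 50, changed the pseudocount to 0.5 or to 5, rescaled by median of ratios, quantiles or equal totals, restricted each fit to its own groups, or added replicate numbers as a fixed or random block. The reference holds another build (GRCm38), used for exon lengths by gene ID and, in RefSeq's table, for promoter windows. Labels name no batch. Tables came from pandas 2.3.3 with NumPy 2.4.6 in Python 3.11.15, permutation tests from the same, intervals from SciPy 1.17.1 and plots from matplotlib 3.10.9.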

Additional observations from a re-analysis of the deposited data

Results flagged for a closer look

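By an F-test (limma, adjusted over all genes) the genotype difference of 4 of the 10 genes differed between treatments, where 1.7% of all genes were called. Txnrd1 was not called by that test in 7 of 27 alternatives and Slc7a11 in 2. Among the pairwise differences given here, the Gclc call for CM from TGFb was lost in 8 of 28 alternatives. The Txnrd1 call for TNFa from TGFb was lost in 5 of 28. For Hmox1 the KO minus WT difference was 0.71 ± 0.08 with CM and 0.05 ± 0.08 with TGFb, 0.66 apart on the log2 scale. For Gclc it was 0.40 ± 0.09 with CM and -0.22 ± 0.09 with TGFb, 0.62 apart, and with TNFa it was 0.65 ± 0.09, 0.86 above that with TGFb. For Txnrd1 it was 0.65 ± 0.08 with TNFa and 0.16 ± 0.08 with TGFb, 0.49 apart. For Slc7a11 it was 0.80 ± 0.11 with TNFa and 0.02 ± 0.11 with TGFb, 0.77 apart. Macrophage markers were higher in KO with CM, with TNFa and with TGFb (medians 1.40, 1.36 and 1.48), and their part in these differences was not tested.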

How the results depend on the processing

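No call of the 10 genes reversed its direction under any alternative. The count of the 10 genes called for KO against WT with TGFb was 1, and 0 with no filter, 2 with equal totals and 0 to 2 when a library was left out. With the replicate block it was 0, as the Srxn1 call was lost (adjusted p = 0.0578). The replicate block also ended the Hmox1 call for CM against TNFa in KO (adjusted p = 0.0579), no other call of the 10 genes, and moved no other count by over 1.5 times. Libraries of the same number did not deviate together (correlations of -0.07 to 0.05, 0 of 45 pairs over 0.1), so the numbers were not taken as pairs. For the F-test the count of 4 ranged from 2 (without TNFa WT replicate 1) to 4 when a library was left out. For the difference of CM from TGFb in the genotype effect, the count of 2 was 1 with quantile normalization and 1 to 2 when a library was left out. For that of TNFa from TGFb, the count of 3 was 5 with quantile normalization and 5 with equal totals, where Hmox1 and Gclm joined. CM against TNFa in KO ranged from 3 (without TNFa KO replicate 2) to 5 when a library was left out, where the main count was 5, and CM against TGFb in KO was 5 in place of 3 with equal totals. The cause was not tested. Over all genes, the calls of the F-test numbered 246, and 111 to 518 when a library was left out, and those of the pairwise differences of the genotype effect 91, 71 and 159 (CM from TNFa, CM from TGFb and TNFa from TGFb), and 32 to 348, 15 to 238 and 62 to 284. Equal totals gave 2784 calls in place of 1835 for CM against TNFa in KO and 4875 in place of 3237 for TNFa against TGFb in KO.

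With 3 libraries a group and no untreated cells, differences among treatments have no baseline. Nqo1 and Keap1 have the lowest levels and the widest intervals, and their differences are the least precisely measured. Neither NRF2 protein nor glutathione was measured.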

Other observations

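Of haem and iron genes outside the 10, about the same share as of all genes was called between the genotypes (9.39%, 7.89% and 12.2% of all genes with CM, TNFa and TGFb). Of 11 tested, 1 higher and 0 lower were counted in KO with CM, 0 higher and 1 lower with TNFa and 0 higher and 1 lower with TGFb, with medians of 0.15, -0.08 and 0.03. Hpx, which encodes the haem carrier hemopexin, rose in KO with CM (0.66 ± 0.11, adjusted p = 9.66e-05), and Slc48a1, a haem transporter, fell with TGFb by 0.25 (SE 0.08, adjusted p = 0.0486). The ferritin genes Fth1 and Ftl1, also NRF2 targets, passed in none of the genotype comparisons. Between treatments the list had 3 higher with TNFa than with TGFb in each genotype, with 2 lower in KO and 1 lower in WT. The shares of all genes higher and lower were 10.1% and 12.3% in KO and 5.33% and 8.06% in WT. Slc48a1 was one of the 3 (1.03 ± 0.08 in KO and 0.87 ± 0.08 in WT), as was Fth1 (0.51 ± 0.10 in KO and 0.43 ± 0.10 in WT).

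Slc7a11 is also a target of ATF4, the factor of the amino acid response, and the ATF4 target list was therefore counted beside it. Of 18 genes, 4 higher and 1 lower were counted in KO with CM, 0 higher and 4 lower with TNFa and 2 higher and 5 lower with TGFb, with medians of 0.08, -0.20 and -0.09. Over all genes the shares were 5.62% and 3.77%, 4.19% and 3.7%, and 7.25% and 4.95%, with medians of -0.01, 0.02 and -0.01. With TNFa the genes that fell were Vldlr (-0.46 ± 0.08), Ddit4 (-0.75 ± 0.16), and the serine synthesis genes Psat1 (-0.39 ± 0.09) and Phgdh (-0.48 ± 0.13). Atf4 itself rose in KO with CM (0.29 ± 0.08, adjusted p = 0.0217) and differed by 0.14 ± 0.08 with TNFa and 0.06 ± 0.08 with TGFb. With TNFa against TGFb 5 higher and 5 lower were counted in KO and 3 higher and 1 lower in WT. The shares of all genes were 10.1% and 12.3% in KO and 5.33% and 8.06% in WT. What ATF4 contributes to the differences of Slc7a11 was not tested.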
